A study of Mus musculus with 11 samples.

Results

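The genes described here are 10 transcription factors of the pallial excitatory lineage, *Emx1*, *Emx2*, *Neurog1*, *Neurog2*, *Eomes*, *Neurod1*, *Neurod2*, *Neurod6*, *Tbr1* and *Fezf2*, out of 21755 protein-coding genes on chromosomes 1 to 19 and X. They were chosen by name, with earlier results of these data known, so the choice was not blind to the values. For each gene, the H3K27me3 peaks over the gene body and 10 kb either side (mm10) were compared between the cortex (CTX) and the ganglionic eminences (GEs), which are divided into a medial (MGE), a caudal (CGE) and a lateral (LGE) part. The libraries came from wild-type C57BL/6J embryos, and the labels list 2 samples of MGE and 3 each of CGE, LGE and CTX. In each of the last 3 regions a pair of samples shares replicate number 2, so these may not be separate biological replicates. The results section of the study gives E12.5 for the CUT&Tag tissue. Its dissection methods and the protocol in the labels name both E12.5 and E14.5, with no age for each CUT&Tag sample. Tissue of several embryos was pooled, the cortex was somatosensory cortex, and each microdissected region holds dividing progenitors together with young neurons. The protocol also says that nuclei from the regions were mixed at equal numbers, whereas the labels assign each sample to 1 region.

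In CUT&Tag, an antibody against a histone modification directs a transposase to the nucleosomes that carry it, and the DNA around them is tagged and sequenced. H3K27me3 is written by the Polycomb repressive complex PRC2, often on CpG-rich DNA, and covers many developmental regulators in cells that do not express them. In the dorsal telencephalon, Emx1 and Emx2 are homeobox factors of the cortical progenitors and Neurog1 and Neurog2 are proneural bHLH factors that start excitatory neurogenesis. Eomes (Tbr2) marks intermediate progenitors, the NeuroD factors act in differentiating neurons, Tbr1 specifies early-born deep-layer neurons, and Fezf2 is present in cortical progenitors and later directs subcerebral projection neurons. The GEs produce GABAergic neurons instead.

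Each region is represented by 1 list of broad peaks, called after its samples were merged. No value below therefore has a replicate error, and no difference could be set against the spread between samples. Exchanging the 4 region names could give an exact permutation p no smaller than 0.25 for CTX against the 3 GEs, so no test was run, and all differences are descriptions of these 4 lists. The lists cover between 24.5 Mb (MGE) and 32.9 Mb (CGE), and the CTX list, with 31.2 Mb, covers more than those of MGE and LGE.

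Because the modification favours CpG-rich DNA, 3 promoters are shown as sequences, for 3 patterns: covered in the GEs alone, covered in every list and covered in none. Each holds 300 bases around the RefSeq start (GRCm38.p6), most of them upstream, 5′ to 3′ on the strand of the gene, and capitals mark CpG dinucleotides. *Fezf2* (chr14:12345816-12346115, minus strand) lies under peaks over 100% of this stretch in each GE and over 0% in CTX. *Emx1* (chr6:85187681-85187980, plus strand) is covered over 100% in all 4 lists, and *Neurod6* (chr6:55681214-55681513, minus strand) over 0% in all 4.
Fezf2: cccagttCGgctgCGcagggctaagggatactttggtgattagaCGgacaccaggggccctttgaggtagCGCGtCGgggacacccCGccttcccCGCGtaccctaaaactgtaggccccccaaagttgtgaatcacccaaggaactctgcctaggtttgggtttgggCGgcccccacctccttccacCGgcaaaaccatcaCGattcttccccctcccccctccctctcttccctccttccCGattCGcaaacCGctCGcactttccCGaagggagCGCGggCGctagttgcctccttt
Emx1: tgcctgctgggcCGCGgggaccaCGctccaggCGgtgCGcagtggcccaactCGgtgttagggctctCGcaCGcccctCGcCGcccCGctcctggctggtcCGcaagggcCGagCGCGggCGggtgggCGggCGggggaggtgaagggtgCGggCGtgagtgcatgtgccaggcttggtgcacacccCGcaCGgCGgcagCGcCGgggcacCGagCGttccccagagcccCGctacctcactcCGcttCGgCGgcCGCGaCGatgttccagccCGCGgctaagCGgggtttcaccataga
Neurod6: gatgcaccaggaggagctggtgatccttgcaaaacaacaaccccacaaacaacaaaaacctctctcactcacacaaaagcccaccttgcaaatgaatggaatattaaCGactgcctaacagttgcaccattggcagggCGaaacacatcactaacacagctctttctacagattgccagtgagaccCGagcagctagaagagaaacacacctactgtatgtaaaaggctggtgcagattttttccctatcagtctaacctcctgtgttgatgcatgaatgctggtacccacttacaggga

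The *Fezf2* promoter holds 20 CpG dinucleotides and that of *Emx1* 37, against a median of 7 over 32619 RefSeq promoters of the same length. The *Neurod6* promoter holds 3. All 10 genes had an entry. CpG counts did not order the genes by coverage, since the *Emx2* promoter, with 26 CpG, lay outside the peaks of all 4 lists and that of *Tbr1*, with 7, was covered over 100% in all of them. The E-box CANNTG, the core motif bound by bHLH factors such as the neurogenins, was found at least once in the promoters of *Emx1*, *Neurog1*, *Neurod1*, *Neurod2*, *Neurod6* and *Tbr1*, and in 72.3% of all promoters. Its form CAGATG, searched on both strands and contained in CANNTG, was found in that of *Neurod2* and in 17.1% of all promoters. The homeobox core TAATTA was found in *Emx2*, *Neurog1* and *Tbr1* and in 5.25% of all promoters.

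The main question was whether genes of the cortical lineage carried less H3K27me3 in CTX than in the GEs. A gene was called lower in CTX when its window held at least 1 kb fewer bases under peaks in CTX than in the GE with the fewest. The windows of *Emx1*, *Emx2*, *Neurog1*, *Neurog2* and *Fezf2* met this rule, 5 of 10 genes, and no member was higher in CTX by the same measure. In 7 of 10 windows, those of *Eomes* and *Neurod6* included, CTX had the fewest covered bases of the 4 lists, as it did at 21.4% of tested genes. Among 9076 protein-coding genes with at least 1 kb covered in 1 list, 4.39% were lower and 8.92% higher in CTX. Genes with broad coverage can differ by more, and of the 1046 genes with at least 5 kb covered in each GE, a group set apart after the values were seen, 13.9% were lower in CTX. The 5 called members all belong to this group, which holds 8 of the 10. Among genes with windows of 20 to 40 kb, the range that holds all members and likewise set afterwards, the share was 3.28%. In bulk tissue, fewer nuclei with the modification and less of it per nucleus cannot be told apart.

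The median over the 10 windows was 5.49 kb under peaks in CTX, against 11.1 kb in MGE, 10.3 kb in CGE and 9.71 kb in LGE. Over all tested genes the medians were 2.33, 2.03, 2.62 and 2.20 kb in the same order. The difference of CTX from the mean of the GEs had a median of −2.0 kb over the members and 0.00467 kb over all tested genes. In each GE the median of the members lay above that of all tested genes, while *Neurod6*, with 1.10 to 1.16 kb, lay below it.

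**Figure D1:**
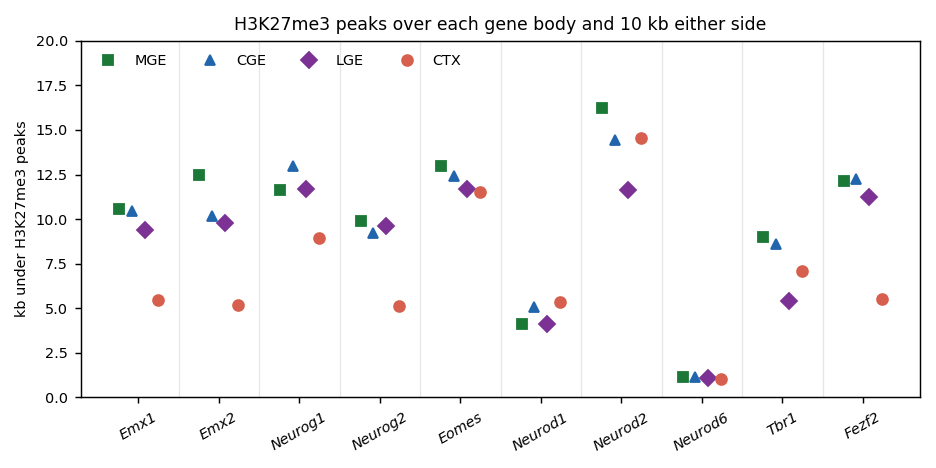
Kilobases under H3K27me3 peaks (y axis) over the body and 10 kb either side of each of the 10 genes (x axis), 1 point for each merged list. The CTX points of *Emx1*, *Emx2*, *Neurog1*, *Neurog2* and *Fezf2* sit apart below those of the GEs, whereas the 4 points of *Neurod6* lie between 1.02 and 1.16 kb.

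Among the homeobox genes of cortical progenitors, *Emx1* (chromosome 6, 85187438 to 85204462, plus strand) had 10.6 kb under peaks in MGE, 10.4 kb in CGE, 9.37 kb in LGE and 5.45 kb in CTX. The GEs lay within 1.20 kb of each other, and the difference of CTX from the nearest of them was −3.92 kb. In each GE a single peak of at least 9054 bases ran from about 2 kb upstream across the first 7 kb of the gene. In CTX this domain was split into a peak of 3484 bases over the gene start and one of 1970 bases inside the gene, with 2606 bases of intron between them that all 3 GEs covered. The start itself was covered in CTX as well, with 97.4% of the 2 kb upstream under peaks in CTX and 97.9% to 100% in the GEs. A second, small peak beyond the 3′ end of the gene (320 to 1055 bases) was present in the GE lists and absent from the CTX list.

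The centre of the intronic stretch covered in the 3 GEs and not in CTX is shown because it is the longest such stretch at any member (chr6:85190178-85190377, plus strand, GRCm38, 2.74 to 2.94 kb from the 5′ end). Capitals mark its 15 CpG dinucleotides within 200 bases.
Emx1 intron: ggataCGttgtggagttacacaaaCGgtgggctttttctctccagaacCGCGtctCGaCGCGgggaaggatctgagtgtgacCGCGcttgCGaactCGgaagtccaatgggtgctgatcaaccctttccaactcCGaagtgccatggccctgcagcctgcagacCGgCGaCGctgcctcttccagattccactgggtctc

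*Emx2* (chromosome 19, 59458372 to 59465357, plus strand), which acts with *Emx1* in cortical patterning, had 12.5 kb under peaks in MGE, 10.2 kb in CGE, 9.80 kb in LGE and 5.20 kb in CTX. The difference of CTX from the nearest GE was −4.60 kb. All 4 lists held the same 3 domains, one upstream, one inside the gene and one beyond its 3′ end, and each was narrower in CTX. The upstream peak was 3150 to 3431 bases wide in the GEs and 2902 in CTX, and the downstream peak 4352 to 4928 bases in the GEs and 1019 in CTX. The intragenic peak spanned 1278 bases in CTX, against 4672, 2017 and 1720 bases in MGE, CGE and LGE. Against CGE and LGE, CTX thus differed most in the downstream peak, whereas against MGE the intragenic and downstream peaks differed by similar amounts. The gene start was free of peaks in CGE, LGE and CTX, and in MGE the intragenic peak reached within 0.992 kb of it. The upstream domain lies in *Emx2os*, a noncoding gene on the other strand, so its peaks cannot be given to one of the 2 genes.

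The proneural gene *Neurog2* (chromosome 3, 127633135 to 127635631, plus strand) had 9.88 kb under peaks in MGE, 9.24 kb in CGE, 9.63 kb in LGE and 5.14 kb in CTX. The GEs differed by no more than 0.635 kb, and CTX differed from the nearest by −4.10 kb. The peak furthest upstream ran over 1931 to 2008 bases in MGE and CGE, reached 4575 bases in LGE and was 1199 bases wide in CTX. Over the gene start, MGE had a peak of 4359 bases and CGE one of 3701, whereas LGE had 1812 bases and CTX 1690. The downstream domain, between 4.81 and 8.42 kb from the start, was 3238 to 3612 bases wide in the GEs and 1869 in CTX. Of the 2 kb upstream, 29.5% was covered in CTX and 41.2% in LGE, against 100% in MGE and 99.6% in CGE, so that immediately upstream LGE stood nearer to CTX than to the other GEs.

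*Neurog1* (chromosome 13, 56250478 to 56252163, minus strand), the other neurogenin, showed the smallest difference among the called genes, with 11.6 kb in MGE, 13.0 kb in CGE, 11.7 kb in LGE and 8.93 kb in CTX, a difference of −2.71 kb from the nearest GE. The body of the gene and the 2 kb on either side of its start were covered over 100% in every list. The bases missing from CTX were in 2 flanks, 2117 bases downstream, from 2.22 to 4.34 kb, and 842 bases at the upstream edge of the window. The peak over the gene ended at 2.22 kb in CTX and at 4.34 to 4.46 kb in the GEs.

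*Fezf2* (chromosome 14, 12342094 to 12348189, minus strand) had the largest difference, with 12.1 kb under peaks in MGE, 12.2 kb in CGE, 11.2 kb in LGE and 5.52 kb in CTX. Of the gene body, 31.0% was covered in CTX, against 88.0%, 89.0% and 73.8% in MGE, CGE and LGE, and the difference of the windows between CTX and the nearest GE was −5.73 kb. A peak of 6423 to 9126 bases lay over the gene in the GEs, and in its place CTX had 2 peaks of 1888 and 934 bases. The RefSeq start printed above lies inside the gene as GENCODE annotates it, in the part that CTX leaves uncovered. Over 2 kb either side of the RefSeq start, CTX had 1537 covered bases, against 3595, 3651 and 2727 in MGE, CGE and LGE. The upstream domain was nearly as wide in CTX (2695 bases) as in the GEs (2817 to 3021 bases), and a further peak beyond the gene, in CGE and LGE, was absent from MGE and CTX.

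**Figure D2:**
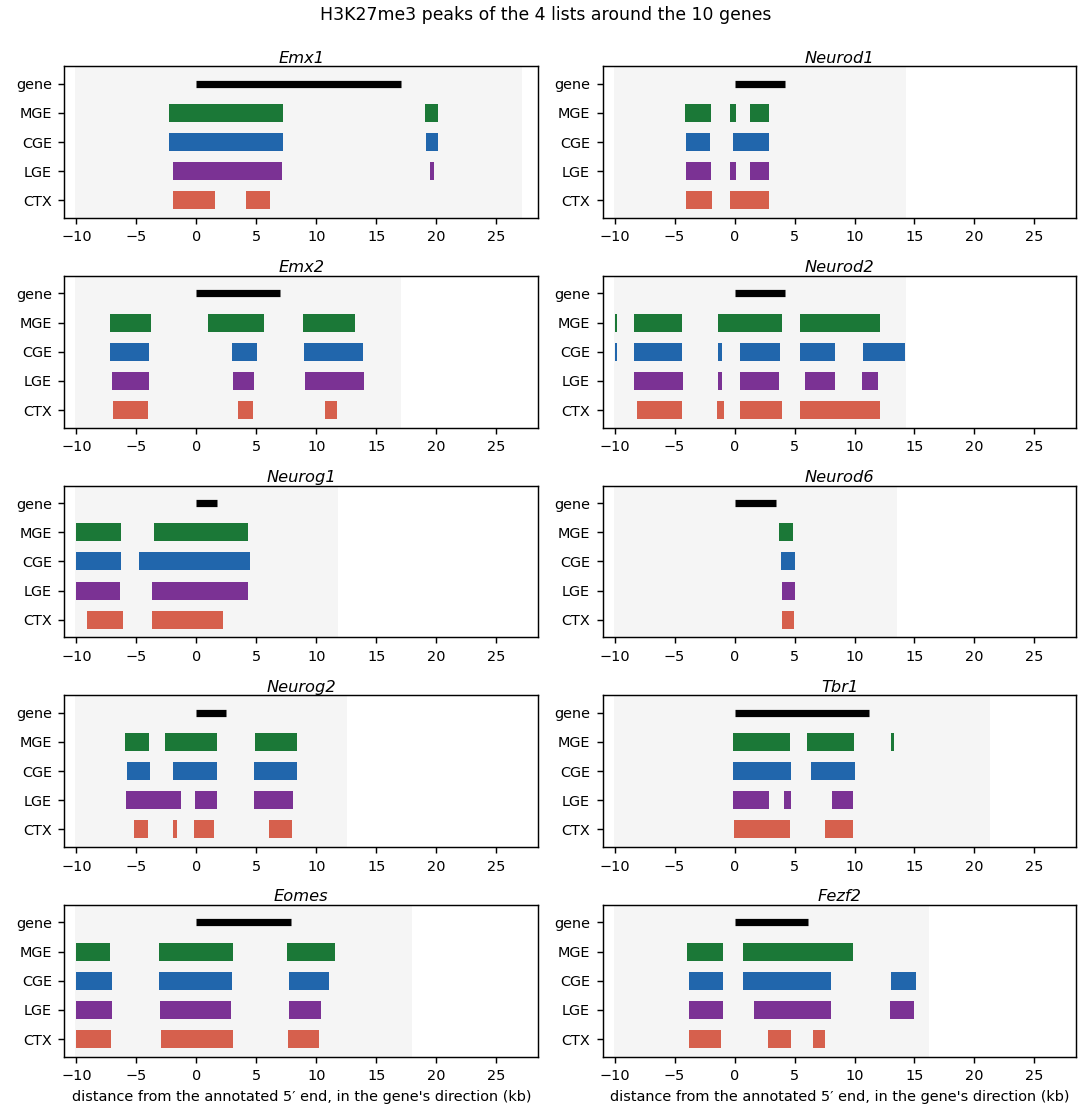
Positions of the H3K27me3 peaks (bars) of each list within the window (grey) of each gene, as distance in kb from the annotated 5′ end in the direction of the gene (black bar, gene body). At *Emx1* and *Fezf2* the wide peak of the GEs is replaced by 2 shorter peaks in CTX, while at *Eomes* the 4 lists hold the same 3 domains.

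The other 5 genes did not meet the rule in either direction. *Eomes* (chromosome 9, 118478212 to 118486132, plus strand), the gene of intermediate progenitors, had 13.0 kb in MGE, 12.4 kb in CGE, 11.7 kb in LGE and 11.5 kb in CTX. The 4 kb around its start were covered over 100% in all lists, and 84.6% of the bases covered in any list were covered in all 4, the highest share among the members. Its downstream domain overlaps the antisense gene *Gm33460*.

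Among the neuronal bHLH genes, *Neurod1* (chromosome 2, 79452521 to 79456751, minus strand) was the member with the most covered bases in CTX relative to the GEs. Its window held 4.13 kb in MGE, 5.06 kb in CGE, 4.11 kb in LGE and 5.37 kb in CTX, 0.311 kb above the highest GE. In CGE and CTX a single peak spanned the start and most of the gene, and in MGE and LGE it was split by an uncovered stretch. *Cerkl* on the same strand and the noncoding *Gm26755* overlap the gene and share these peaks.

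*Neurod2* (chromosome 11, 98325415 to 98329648, minus strand) had 16.2 kb in MGE, 14.4 kb in CGE, 11.6 kb in LGE and 14.6 kb in CTX, the widest coverage of the members in each list but LGE, where *Eomes* and *Neurog1* had slightly more. CTX lay inside the range of the GEs, and the GEs themselves spread over 4.62 kb. The gene start was covered in MGE alone, where 69.7% of the 2 kb upstream lay under peaks, against 18.8% to 30.5% in the other lists. *Neurod6* (chromosome 6, 55677822 to 55681263, minus strand) was free of peaks over its body and within 2 kb of its start in all 4 lists. Its window held 1 peak just past the 3′ end, 1016 bases wide in CTX and 1135, 1163 and 1098 bases wide in MGE, CGE and LGE. The fold enrichment of this peak over the local background, as the peak caller gave it, reached 3.67 in CTX, against 5.90, 5.97 and 5.36 in MGE, CGE and LGE, at percentile 86.7 of the CTX list and 97.7 to 99.7 of the others.

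*Tbr1* (chromosome 2, 61802930 to 61814114, plus strand), the deep-layer factor, had 9.01 kb in MGE, 8.58 kb in CGE, 5.40 kb in LGE and 7.10 kb in CTX. Here LGE and not CTX was lowest, and 25.6% of the bases shared by the other 3 lists were missing from LGE. The peak that begins at the gene start was 4710 to 4842 bases wide in MGE, CGE and CTX, and LGE had peaks of 3032 and 577 bases over the same stretch.

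The 5 genes called lower in CTX are those known from ventricular zone progenitors of the cortex, with *Fezf2* continuing into neurons, and the 5 others are known from intermediate progenitors and differentiating neurons. *Sfxn5* and *Psmd14*, protein-coding neighbours that reach into the windows of *Emx1* and *Tbr1*, added 0 covered bases in any list. The grouping by stage was made after the values were seen and carries no test. Outside the members it did not hold throughout, since *Tle4*, a corepressor of deep-layer neurons, was also lower in CTX. Among the members the grouping depends on the setting. Over the gene body alone only *Emx1* and *Fezf2* remained lower, and with peaks less than 3 kb apart joined *Neurod2* was lower as well.

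The same contrast was then measured base by base. Of the 79.5 kb covered in all 3 GEs within the 10 windows, 17.5 kb (22.1%) were missing from CTX. Over chromosomes 1 to 19 and X, 11.2% of the bases covered in all 3 GEs were missing from CTX. With another region in the place of CTX, the share missing within the windows was 0.665% for MGE, 0.628% for CGE and 4.38% for LGE, against 15.7%, 2.41% and 6.35% over the genome. The member windows thus had a higher share than the genome for CTX and a lower one for each GE. The GE shares are not a separate result. For a GE only bases also covered in CTX count, 62.4 kb for MGE and CGE and 64.8 kb for LGE. The narrower CTX peaks therefore also limit what can be missing from a GE.

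By gene, the share of the GE bases missing from CTX was 42.2% at *Emx2*, 41.8% at *Emx1*, 40.4% at *Fezf2*, 32.8% at *Neurog2* and 25.6% at *Neurog1*. It ranged from 1.40% (*Tbr1*) to 3.06% (*Neurod6*) at the others. Bases covered in CTX alone were few, with 120 at *Neurog1*, 129 at *Neurod1*, 71 at *Neurod2* and 0 at the other 7 genes. Within the windows of *Emx1*, *Emx2*, *Neurog2* and *Fezf2*, each base under a CTX peak also lay under a peak of at least 1 GE.

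**Figure D3:**
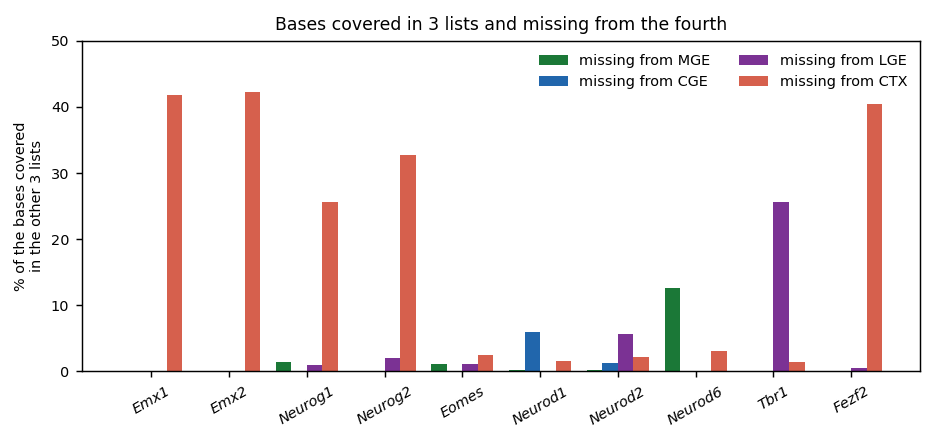
For each gene, the bases covered in 3 lists and missing from the remaining list, given in percent of those shared bases (y axis, bars start at 0), with a bar for each list in turn. The CTX bars reach 25.6% to 42.2% at 5 genes, and among the other bars only LGE at *Tbr1* (25.6%) and MGE at *Neurod6* (12.6%) exceed 10%.

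At the 5 called genes the missing bases came to 16.8 kb in 23 stretches. Of these bases, 46.5% lay downstream of the gene, 26.5% in introns, 14.3% in exons and 12.8% upstream. The same rule was also applied to the 4 kb around the GENCODE 5′ end. Of the 9 members with at least 1 kb covered there, 0 were lower in CTX and 0 higher, against 2.70% and 3.66% of 5438 genes. A difference of 1 kb is harder to reach in 4 kb, so this count cannot show that the starts differ less. CTX differed from the nearest GE by −552 bases at *Fezf2*, −473 at *Emx1*, −462 at *Neurog2*, −65 at *Tbr1* and 348 at *Neurod1*. *Fezf2* met the rule with the start of any annotated transcript, a planned setting (−1190 bases). It also did so with the RefSeq start, a setting chosen after the values were seen.

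The missing stretches were also compared in base composition with those that CTX keeps. Over the 5 called genes, the bases covered in all 4 lists had 54.9% G and C and 37.2 CpG per kb, the bases missing from CTX had 51.7% and 31.2, and the bases of these windows outside all peaks had 45.7% and 11.9. The order was not the same at every gene. The missing bases had more CpG per kb than the kept ones at *Emx1* (41.3 against 37.6), *Emx2* (35.1 against 26.5) and *Fezf2* (40.3 against 33.3), and fewer at *Neurog1* (10.5 against 36.7) and *Neurog2* (20.4 against 52.8).

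Peak strength gave a further readout from the same lists. Depth differs between the lists, so the strongest peak of each window, by the −log10 q that the authors' peak caller assigned, was ranked within its own list. The rank does not remove the effect of depth, since a deeper library can yield more and weaker peaks. At *Emx1* the strongest CTX peak had a −log10 q of 3.67, at percentile 48.9 of its list, and those of MGE, CGE and LGE had 24.2, 38.3 and 24.6, at percentiles 89.7, 86.9 and 83.6. At *Emx2* the −log10 q was 3.99 in CTX against 26.0, 55.6 and 36.8, with CTX at percentile 51.6 and the GEs at 88.7 to 91.5. At *Neurog2* it was 6.81 in CTX against 62.9, 90.4 and 57.6, with CTX at percentile 65.4 and the GEs at 94.3 to 99.2. The strongest CTX peak of these 3 genes was at least 20 percentile points below that of every GE, a limit set after the values were seen, which 3.99% of 7388 genes with a peak in all 4 lists met.

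*Fezf2* followed with a −log10 q of 22.9, 34.1 and 40.9 in MGE, CGE and LGE and 10.5 in CTX, at percentile 73.3 in CTX and 85.3 to 90.2 in the GEs. *Neurog1* did not share this pattern, with CTX at percentile 89.5 inside the range of the GEs (87.8 to 91.5). At *Eomes*, *Neurod1*, *Neurod2* and *Tbr1* the percentile lay between 92.8 and 98.4 in every list. The *Neurod6* peak stood at percentile 64.3 in CTX and at 89.1, 91.0 and 73.6 in MGE, CGE and LGE, so that the single peak of this gene was lower in rank in CTX although its width was nearly equal. In all, CTX had the lowest percentile of the 4 lists at 6 of 10 members and at 25.2% of the 7388 genes.

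The fold enrichment of the strongest peaks, as the peak caller gave it, did not follow the q-value at *Emx1*, *Emx2*, *Neurog2* and *Fezf2*, whereas at *Neurod6* CTX was the lowest list in both. It was 2.00 in CTX against 1.72 to 1.80 in the GEs at *Emx1*, 2.69 against 2.13 to 2.55 at *Emx2*, 2.90 against 2.42 to 2.53 at *Neurog2* and 2.69 against 1.85 to 2.11 at *Fezf2*. For these strongest peaks CTX was the highest of the lists in fold and the lowest in −log10 q, and its widest peak was the narrowest. Over all peaks of the *Emx1* window the highest fold reached 2.01 in CTX, against 2.76 to 3.04 in the GEs, where it belonged to the small peak beyond the 3′ end.

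**Figure D4:**
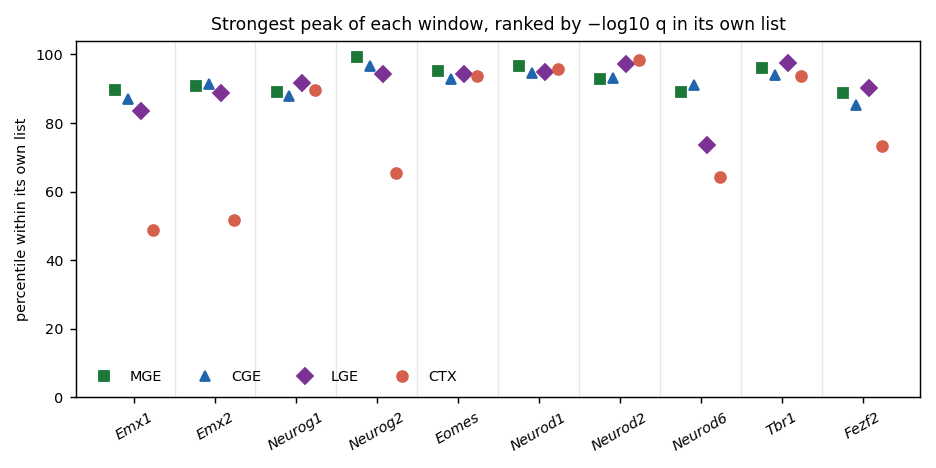
Percentile of the strongest peak of each window among all peaks of its own list by −log10 q (y axis, 100 is the strongest), for each gene and list. The CTX points lie between 48.9 and 73.3 at *Emx1*, *Emx2*, *Neurog2* and *Fezf2*, where the GE points lie between 83.6 and 99.2.

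Among the GEs, LGE had the fewest covered bases at 8 of 10 members, against 33.7% of tested genes, and MGE the most at 6 of 10, against 15.3%. Some of these gaps were small, with 4109 bases in LGE and 4130 in MGE at *Neurod1*, and 1098 and 1135 at *Neurod6*. From its accessibility data, the paper reports cells in LGE and CGE, not in MGE, that likely came from the boundary with the pallium. Whether such cells bear on these orders was not tested. *Neurod2* and *Tbr1* were at least 1 kb lower in LGE than in every other list, a rule that 2.46% of genes met. *Emx2* and *Neurod2* were at least 1 kb higher in MGE than elsewhere (3.04% of genes), and *Neurog1* in CGE (13.0%). No member was at least 1 kb lower in MGE (8.09% of genes) or CGE (0.342%) than elsewhere, or higher in LGE (1.71%). At *Emx1*, *Emx2* and *Eomes* the order from fewest to most was CTX, LGE, CGE and MGE.

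The members were then set among all tested genes by the difference between CTX and the mean of the GEs. *Fezf2*, at −6.36 kb, had 0.496% of genes at or below its value, *Emx2* (−5.61 kb) 0.661%, *Emx1* (−4.67 kb) 0.915%, *Neurog2* (−4.44 kb) 1.05% and *Neurog1* (−3.17 kb) 1.82%. The other members ranged from −0.831 kb at *Eomes* to 0.938 kb at *Neurod1*. These ranks are descriptions, and they depend on how broadly a gene is covered.

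**Figure D5:**
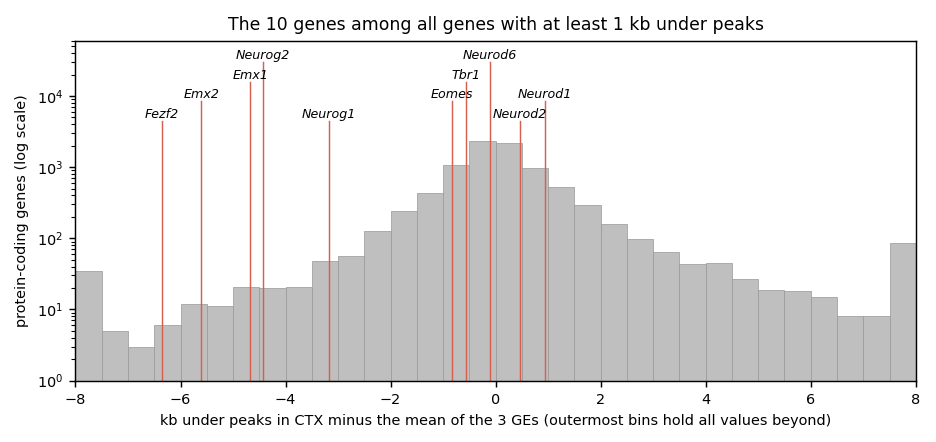
Histogram of the 9076 tested protein-coding genes (y axis, log scale) by the kb under peaks in CTX minus the mean of the 3 GEs (x axis, bins of 0.5 kb), with the 10 members as labelled lines. *Fezf2*, *Emx2*, *Emx1*, *Neurog2* and *Neurog1* lie at −3.17 kb or below, and the other members within 1 kb of 0.

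Other genes of the pallial lineage were taken from a list of 20. Of the 19 with at least 1 kb covered, 6 were lower in CTX and 1 higher, against 4.39% and 8.92% of all tested genes. All of the 6 but *Gli3* had at least 5 kb covered in each GE, a group in which 13.9% of genes were lower. The 6 include factors of cortical progenitors and the cortical hem. *Dmrta2*, a patterning factor, had 12.9 kb in MGE, 11.4 kb in CGE, 12.1 kb in LGE and 4.01 kb in CTX. *Wnt8b*, a ligand of the hem, had 14.1, 16.0 and 16.0 kb in the GEs and 9.08 kb in CTX. *Tle4*, a corepressor of deep-layer neurons, had 11.0, 17.9, 5.68 and 1.02 kb in the order MGE, CGE, LGE and CTX. *Gli3*, a zinc finger factor of dorsal patterning, had no covered base in CTX and 10.8, 11.0 and 3.03 kb in MGE, CGE and LGE. The windows of *Tle4* (169902 bases) and *Gli3* (286792 bases) were far longer than the longest member window (*Emx1*, 37025 bases). *Pax6* and *Lhx2*, regulators of cortical progenitors, made up the remainder. In the order MGE, CGE, LGE and CTX, *Pax6* had 24.0, 16.1, 14.0 and 11.8 kb and *Lhx2* 14.7, 13.7, 8.82 and 7.00 kb. *Cux2*, a gene of upper-layer neurons, was the one higher in CTX, with 11.6 kb against 4.87 to 6.28 kb in the GEs.

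Of 20 genes of the GEs, 1 was lower and 3 were higher in CTX. *Olig2*, a progenitor bHLH gene, had 12.6 kb in CTX and 7.87 to 10.8 kb in the GEs, *Lhx8* 9.91 against 7.35 to 8.61 kb, and *Dlx6* 13.6 against 12.3 to 12.4 kb. The median difference between CTX and the mean of the GEs was 0.654 kb over this list and −0.537 kb over the other pallial genes. Shares of 3 of 20 higher and 1 of 20 lower compare with 8.92% and 4.39% of all genes. With counts so near these shares, the list cannot serve as a check of the region labels. Genes of vessels, blood and meninges gave no call in either direction among the 8 of 10 with at least 1 kb covered. Summed over the list, their windows held 55.7 kb in MGE, 65.3 kb in CGE, 58.7 kb in LGE and 60.0 kb in CTX, and those of *Cdh5* and *Gata1* were free of peaks throughout.

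The calls at *Emx2*, *Neurog1* and *Neurog2* rest on the flanks of the genes, since over the gene body alone 2 members, *Emx1* and *Fezf2*, were at least 1 kb lower in CTX. *Emx1*, *Emx2*, *Neurog1*, *Neurog2* and *Fezf2* were also lower in CTX when all lists were cut to equal covered bases by dropping their weakest peaks. At this setting 8.20% of all tested genes were lower. The cut left 11489 of 18785 peaks in CTX, 10872 of 19196 in CGE, 14230 of 16851 in LGE and all 15384 in MGE. Because it took more from CTX than from MGE or LGE, this setting cannot serve as a check of the calls.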

How the data were processed

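H3K27me3 CUT&Tag was performed on MGE, CGE, LGE and CTX, in 11 samples grouped by the region in their labels. Reads were aligned by the authors with Bowtie2 (GRCm38/mm10). After blacklist filtering and duplicate removal with Picard, the files of a region were merged with SAMtools and de-duplicated once more, and MACS was run in its broad mode. Its version and control are not given in the sources used here. For each peak, the deposited lists hold the fold enrichment (the ratio of its signal to that expected locally) and −log10 of the q-value. The lists hold no read counts, so depth per peak is unknown and no counting interval is given, and a deeper library can yield more and weaker peaks.

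Peaks on chromosomes 1 to 19 and X were intersected with GENCODE M21 gene bodies extended by 10 kb, and with 4 kb around the annotated 5′ end, in Python 3.11.15 with NumPy 2.4.6, by functions tested on simulated peaks. Sequences came from RefSeq (GRCm38.p6). A gene was called lower or higher when CTX differed from the nearest GE by at least 1 kb of covered bases, and genes with at least 1 kb covered in 1 list formed the background. All 10 members are named, and up to 4 genes of each further list were named by the largest difference, with the neighbouring genes, *Gli3*, *Pax6*, *Lhx2*, *Cdh5* and *Gata1* named after their values were seen. The values of 1 further gene, which entered the counts, are not reported here. The members and lists were chosen with earlier results of these data known. No test was run, because each region has 1 list. Alternatives were windows of other lengths, a q-value under 0.001, joined peaks, lists of equal bases or equal peak numbers, and other thresholds. The RefSeq start, the narrower backgrounds and the limit of 20 percentile points were added after the data were seen.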

Additional observations from a re-analysis of the deposited data

How the results depend on the processing

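No paired analysis was possible because the samples of a region were merged before peaks were called and no test was run, and for the same reason no sample could be left out in turn. The 5 members lower in CTX numbered 2 over the gene body alone, and stayed within 1.5 times of 5 under all other settings, and no member was higher under any of them. *Emx1* and *Fezf2* were lower in CTX under 7 of 7 settings of window or list, and *Emx2*, *Neurog1* and *Neurog2* under 6. *Neurod2* was lower when peaks less than 3 kb apart were joined (−1.68 kb). No call changed direction. Equal bases and equal peak numbers left the MGE list uncut and trimmed the CTX list, so they cannot check a call lower in CTX.

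Around the gene start, the 0 members lower in CTX became 1 with a q-value under 0.001, joined peaks, equal bases, equal numbers of peaks, a difference of 0.5 kb, the start of any transcript or the RefSeq start, and 2 against the mean of the GEs. Of all tested genes, the 4.39% lower in CTX became 8.20% with equal bases, 8.37% at 0.5 kb, 1.52% at 2 kb and 11.5% against the mean, and the 8.92% higher became 13.9%, 4.07% and 15.4% at the last 3 of these settings. Of the other pallial genes, the 1 higher in CTX became 2 with a q-value under 0.001 or 0.5 kb and 0 with equal bases. Of the eminence genes, the 1 lower became 0 with joined peaks, and the 3 higher became 5 at 0.5 kb, 0 at 2 kb and 8 against the mean. Of the genes of vessels, blood and meninges, 1 was lower against the mean, and the 0 higher became 1 with joined peaks or against the mean and 2 at 0.5 kb. Lower thresholds and the mean admit more genes by construction, and otherwise the cause was not tested.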
